A study of Mus musculus with 4 samples.

Results

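Ccl2, Ccl7, Ccl8 and Ccl12, the CC chemokines known for attracting monocytes, were followed across the cells of 4 single-cell RNA libraries from mouse brain and dura mater, the outer layer of the meninges. They were chosen by name and are 4 of the 19491 genes listed in any library, and all 4 were listed in each. Each library held CD45+ cells, that is cells of blood origin and microglia, sorted by flow cytometry from the brain or the dura mater of 8-week-old C57BL/6J mice. The injured libraries came from day 3 (D3) after photothrombotic injury (PTI), in which light through the skull activates a circulating dye and clots the vessels beneath it. The other 2 libraries carry the control label CT and were taken as the sham samples of the same day (S3). All tissue was dissociated with collagenase and dispase, and the sort kept CD45+ cells, so that stromal cells were nearly absent, with 62 endothelial-like cells in all and 28 cells of an unnamed cluster led by collagen genes. With 1 library per tissue and condition, and the number of mice behind each not given in the sources used here, no difference between conditions could be tested.

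These chemokines are small secreted proteins that bind receptors on leukocytes and draw them along a gradient. CCL2, CCL7 and CCL12 act through CCR2, the receptor with which Ly6C hi monocytes leave the bone marrow and enter inflamed tissue. CCL7 also binds CCR1 and CCR3, and mouse CCL8 acts through CCR8, a receptor of some T cells and innate lymphoid cells. In inflamed tissue the 4 genes are usually induced in resident macrophages, microglia, mast cells and stromal cells.

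The genes lie on the + strand of chromosome 11, within 81229 bases of the mouse genome (GRCm38). Ccl2 spans chr11:82035571-82037453 and Ccl7 chr11:82045712-82047525, with 8259 bases between them. Ccl12 spans chr11:82101845-82103400 and Ccl8 chr11:82115185-82116799, with 11785 bases between them. Between Ccl7 and Ccl12 lie 54320 bases. Each gene has 3 exons. The longest stretch shared exactly by the transcripts of any pair was 23 bases, between Ccl2 and Ccl7, and no stretch of 50 bases was shared with another gene of the annotation, so reads of one member were unlikely to be counted for another. The RefSeq promoter table (GRCm38.p6) held 2 of the 4 members, Ccl12 and Ccl8. The 250 bases before the start of each are shown as those of neighbouring genes whose levels differed between classes of cells, with the TATA box in capitals.

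Ccl12 promoter, chr11:82101595-82101844, + strand: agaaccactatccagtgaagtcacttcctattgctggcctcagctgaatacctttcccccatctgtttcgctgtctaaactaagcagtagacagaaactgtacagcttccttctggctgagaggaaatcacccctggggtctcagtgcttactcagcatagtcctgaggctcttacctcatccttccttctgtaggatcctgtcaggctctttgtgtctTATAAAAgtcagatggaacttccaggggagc

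Ccl8 promoter, chr11:82114935-82115184, + strand: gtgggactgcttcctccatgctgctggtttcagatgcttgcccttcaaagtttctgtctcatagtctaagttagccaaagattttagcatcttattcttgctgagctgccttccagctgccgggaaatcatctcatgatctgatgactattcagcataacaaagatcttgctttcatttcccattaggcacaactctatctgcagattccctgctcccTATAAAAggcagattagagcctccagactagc

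The TATA box was searched on both strands as TATAAAA, which 4.98% of 32851 promoters of the same length hold. It began 31 bases before the start of Ccl12 and 32 bases before that of Ccl8. Of the 60 bases next to the start, 24 were identical position by position, and the longest run shared by both promoters there was 8 bases. Neither sequence held the letters of an NF-kappaB site (GGG, any 2 bases, TTTCC, in 1.41% of promoters), of an AP-1 site (TGANTCA, 6.75%) or of an interferon-stimulated response element (GAAA, any 2 bases, GAAA, 2.98%), on either strand.

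After filtering, 3618 cells of the brain and 3439 of the dura mater remained at S3, and 4438 and 2603 at D3. The D3 libraries were deeper, with a median of 14269.5 and 14156 transcripts counted by unique molecular identifier (UMIs) per cell in brain and dura mater, against 8252 and 9320 at S3. Pairs of libraries shared between 0 and 7 of the kept cell barcodes. Levels are given as UMIs of the gene per 1000000 UMIs of the class (CPM), and the intervals in brackets are exact 95% Poisson intervals for levels and log2 ratios, which cover counting error only. A gene was called different where 50 or more of its UMIs were held over the groups compared, its CPM differed at least 2-fold and the interval of the log2 ratio left out 0. Cells were clustered without the chemokines and their receptors and named by marker lists, so that each name means a likeness to that cell type. A cluster of 473 cells, here the mixed macrophage cluster, carried markers of Lyve1+ macrophages together with those of T cells at high UMI counts and was left unnamed and outside the macrophages. T cell-like and B cell-like cells, which should not make these genes, were taken to give the level of free RNA. It was higher in the dura mater than in the brain. For Ccl2 it was 5.07 and 12.1 CPM in the brain at S3 and D3, and 24.1 and 43.9 in the dura mater. Ccl8 had the widest range, from 0.822 and 0.806 CPM in the brain to 26.7 and 91.8 in the dura mater. In the dura mater this Ccl8 level rested on few cells. At D3, 5 of the 124 B cell-like cells held 86.1% of their 72 UMIs, and 5 of the 60 T cell-like cells 70.7% of 41. At S3 these shares were 67.7% and 73.1%. Ccl7 lay between 3.01 and 60.9 CPM, and Ccl12 between 4.66 and 21.1.

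Myeloid cells held most UMIs of the 4 genes, but each gene had its own set of sources. Lyve1+ macrophages, the perivascular and border macrophages named for a hyaluronan receptor, carried all 4. Mast cell-like cells carried Ccl2 and Ccl7 but neither Ccl8 nor Ccl12 above free RNA. Microglia-like cells carried Ccl12 and Ccl2, and Ly6C hi monocyte-like cells Ccl2 alone. The plot of levels by class and library shows these sets side by side.

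**Figure D1:**
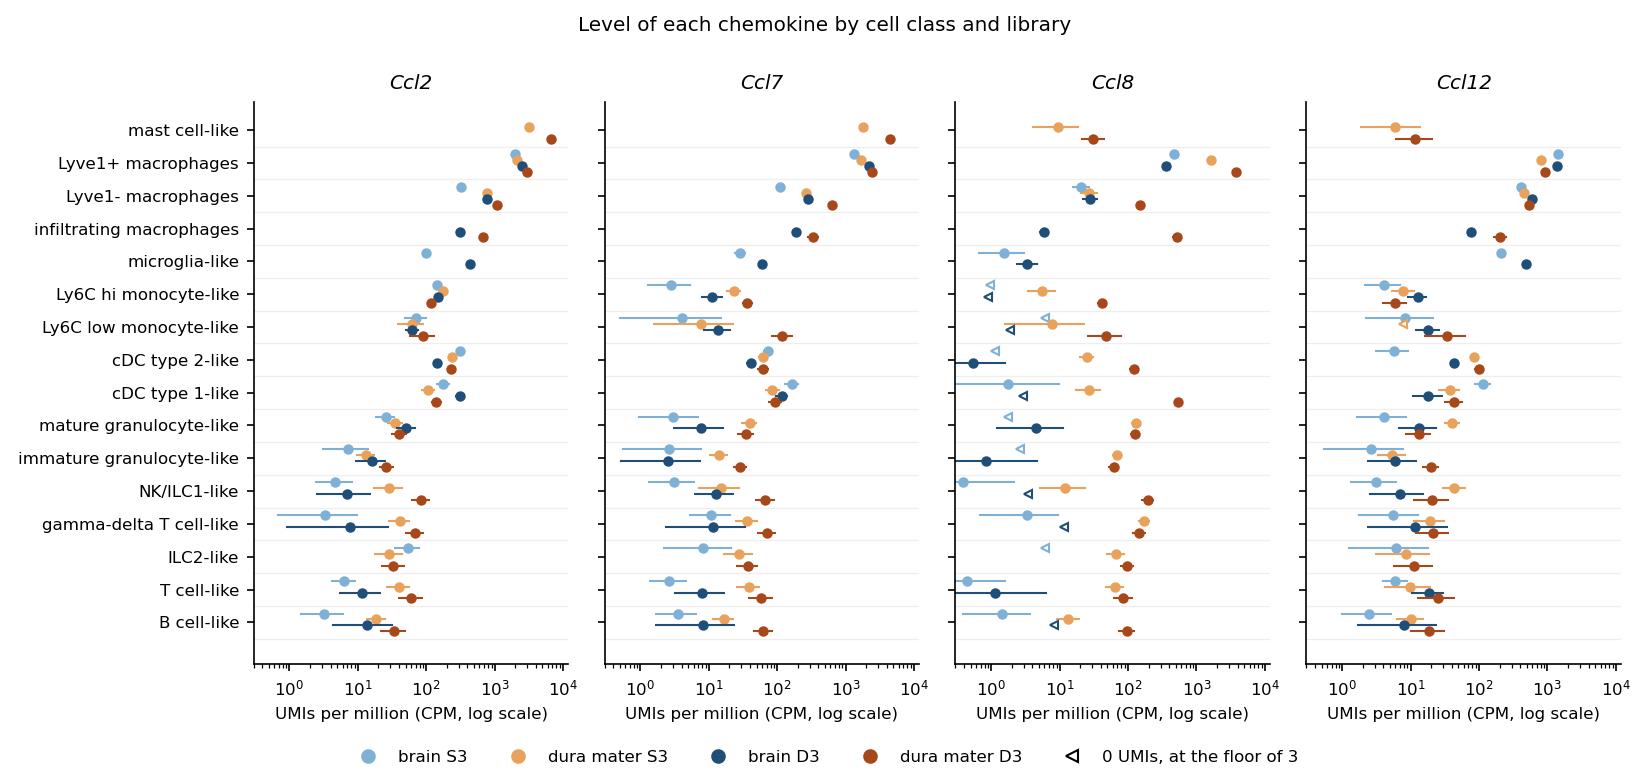
Level of Ccl2, Ccl7, Ccl8 and Ccl12 (CPM, log axis) in 16 classes of cells, coloured by library, for classes with at least 20 cells. Lines are exact 95% Poisson intervals, left triangles mark 0 UMIs at the floor of 3 UMIs. Mast cell-like cells stand beside Lyve1+ macrophages for Ccl2 and Ccl7, and among T cell-like and B cell-like cells for Ccl8 and Ccl12.

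Mast cell-like cells of the dura mater had the highest Ccl2 and Ccl7 levels of any class in both libraries of that tissue. These are tissue granule cells that release histamine and proteases, and all 10 of the 10 mast cell markers were found in at least 10% of the 108 cells at S3 and of the 94 cells at D3. The brain libraries held 1 such cell at S3 and 0 at D3. Ccl2 stood at 3229 CPM (3110 to 3352) at S3 and at 6617 CPM (6460 to 6776) at D3. Every mast cell-like cell of both libraries carried a Ccl2 UMI, with a median of 19 UMIs per cell at S3 and 56.5 at D3. The distributions overlapped, since the 90th percentile of S3 cells was 54.3 UMIs and the 10th percentile of D3 cells 19.6. The log2 ratio of D3 over S3 was 1.03 (0.97 to 1.10).

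Ccl7 in the same cells went from 1827 CPM (1737 to 1920) to 4484 CPM (4355 to 4615), a log2 ratio of 1.30 (1.21 to 1.38). A Ccl7 UMI was found in 69.4% of the cells at S3 and in 84.0% at D3. Thinned to 2000 UMIs per cell, which removes the effect of their unequal depth (medians of 8097.5 and 10553.5 UMIs), the shares were 56.1% and 72.1%. In B cell-like cells of these libraries, at medians of 5426 and 5295.5 UMIs, 7.65% and 16.1% had a Ccl7 UMI. The cells without a Ccl7 UMI were shallower than those with one, at medians of 6629 against 8442 UMIs at S3 and of 8116 against 10988 at D3. Both genes passed the 2-fold call, which 0.751% of 4660 genes tested passed in the higher direction. Ccl8 (9.41 CPM at S3 and 31.1 at D3) and Ccl12 (5.88 and 11.7) stayed below the T cell-like and B cell-like cells of the same libraries.

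Against the macrophages of the dura mater, Lyve1+ and Lyve1- together, mast cell-like cells held a higher level of Ccl2 at S3 (log2 ratio 1.02, 0.96 to 1.08) and at D3 (1.51, 1.47 to 1.55). Ccl7 was higher by 0.69 (0.61 to 0.77) at S3 and by 1.29 (1.24 to 1.34) at D3. Ccl8 and Ccl12 were lower by over 6 log2 units in both libraries, at -6.75 and -6.82 at S3. In that direction, higher in mast cell-like cells, 10.9% of genes passed the call at S3 and 11.1% at D3. The Lyve1+ macrophages alone stood closer to the mast cell-like cells than both kinds together. They held Ccl2 at 2102 CPM at S3 and 2923 at D3, and Ccl7 at 1674 and 2414 CPM. Mast cell-like cells made up 3.14% of the dura mater cells at S3 and 3.61% at D3, and held 16.4% and 17.4% of all Ccl2 UMIs and 14.4% and 15.9% of all Ccl7 UMIs. The Lyve1+ macrophage markers were low in them and alike in both libraries, at a sum of 96.5 CPM at S3 and 90.5 at D3, against 12938 and 12170 in the Lyve1+ macrophages themselves. Fibroblast markers summed to 1.18 and 0.973 CPM.

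Those other CC chemokine genes of the same chromosomal cluster that had enough UMIs moved the other way in mast cell-like cells. Of 7 on the list, 4 had enough UMIs and all 4 were lower at D3, where 0.966% of genes tested were called lower. Ccl3 went from 133 to 5.84 CPM and Ccl4 from 155 to 13.6 CPM. Ccl6 went from 80.0 to 25.3 CPM and Ccl1, a ligand of CCR8, from 50.6 to 24.3. Their D3 values were built on 6 to 26 UMIs each, and their levels were not set against free RNA. Of the NF-kappaB pathway and its early targets, 11 of 12 genes had enough UMIs, 0 were higher and 2 lower, Relb (92.9 to 44.7 CPM) and Il1b (112 to 31.1). Of 12 genes that respond to tissue dissociation, 2 were higher, Atf3 (18.8 to 56.4 CPM) and Hspa1a (71.8 to 202), and their part in the chemokine levels was not tested.

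**Figure D2:**
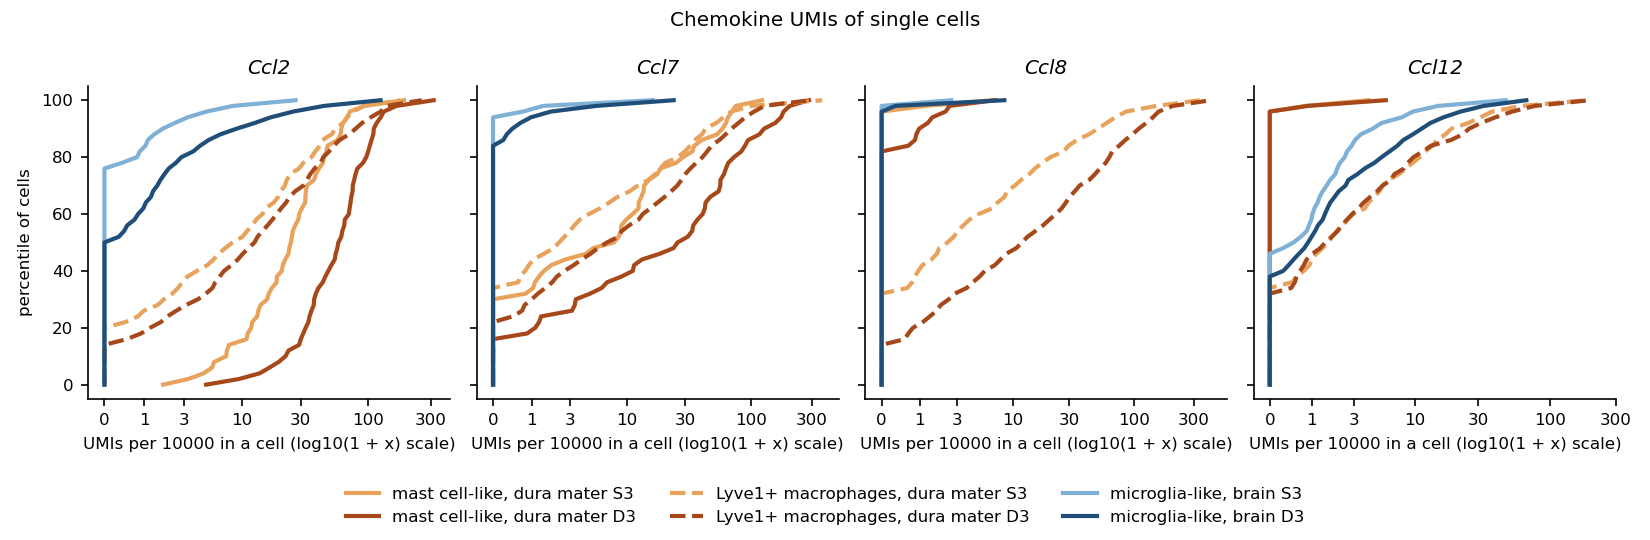
Percentile of cells (y) against the UMIs of the gene per 10000 UMIs in a cell (x, log10(1 + x) scale) for mast cell-like cells and Lyve1+ macrophages (both dura mater) and microglia-like cells (brain), at S3 (light) and D3 (dark). For Ccl2 the mast cell-like curves start above 0 and shift right at D3, while for Ccl8 and Ccl12 they stay at 0 in most cells.

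In the brain, microglia-like cells carried more Ccl2 and Ccl12 at D3. Microglia are the resident macrophages of the brain, and 10 of 10 markers were found in the 431 cells of S3 and in the 627 cells of D3. Ccl2 was at 98.9 CPM (90.5 to 107.8) at S3 and at 435.0 CPM (422.6 to 447.7) at D3, a log2 ratio of 2.14 (2.01 to 2.27). The share of cells with a Ccl2 UMI was 23.7% at S3 and 49.3% at D3, and 8.96% and 23.1% after thinning. In B cell-like cells of the brain 1.81% and 5.33% had a Ccl2 UMI, at medians of 4726 and 3474 UMIs against 9721 and 10584 in microglia-like cells. The median was 0 Ccl2 UMIs in both libraries. At D3 the cells with a Ccl2 UMI were much deeper than those without, at medians of 22869 against 7714 UMIs, and at S3 the medians were 11066.5 and 9402. That depth was near the median of infiltrating macrophage-like cells of the same library, 21359 UMIs, and its part in the result was not tested.

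Ccl12 in microglia-like cells went from 209.2 CPM (196.9 to 222.1) to 490.2 CPM (477.0 to 503.6), a log2 ratio of 1.23 (1.13 to 1.32). It was found in 52.4% of the cells at S3 and 61.2% at D3, and after thinning in 21.4% and 30.2%. Ccl7 was low, at 28.5 CPM at S3 and 60.3 at D3 (log2 ratio 1.08, 0.82 to 1.35), and rested on few cells, since 5 cells held 76.2% of its UMIs at S3 and 52.6% at D3. Ccl8 was at 1.55 and 3.37 CPM, with 8 and 36 UMIs in all. Ccl2, Ccl7 and Ccl12 passed the 2-fold call in microglia-like cells, against 3.93% of 10058 genes tested, but Ccl7 fell under 2-fold with 2500 cells drawn per library (0.71) and with no filter on cells (0.94). The share of microglia-like cells with none of the 4 genes, not thinned, went from 36.7% to 25.4%.

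Other genes of the microglia-like cells moved at the same time. Of 12 genes of the interferon response, 8 were higher at D3, where 3.93% of all genes tested were called higher. The median log2 ratio was 2.19 over the list against -0.17 over all genes. Irf7, the interferon-induced transcription factor, went from 9.89 to 71.7 CPM, and Isg15, a ubiquitin-like protein, from 32.4 to 166 CPM. Cxcl10, a ligand of CXCR3, went from 184 to 416 CPM. Of 12 NF-kappaB genes 0 were called in either direction, with a median of -0.12. Of 5 other CC chemokine genes with enough UMIs 0 were called, and Ccl4 stood at 5942 and 4895 CPM and Ccl3 at 3012 and 2847. Of the dissociation genes, Hspa1a, a heat-shock chaperone, went from 3601 to 931 CPM, so these cells carried more of that heat-shock RNA at S3. The microglia markers summed to 21097 CPM at S3 and 13208 at D3, those of infiltrating macrophages to 2474 and 7895, and those of mature granulocytes to 1221 and 3231. Infiltrating macrophage-like cells of the same library held less Ccl2 and Ccl12 than the microglia-like cells did (log2 ratios -0.50 and -2.69), and more Ccl7 (1.63). The part of these shifts in the microglial chemokine levels was not tested.

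Infiltrating macrophage-like cells, which carried Arg1, Spp1 and Gpnmb, were nearly all in the injured brain, with 1453 cells at D3 and 6 at S3. They held Ccl2 at 308.2 CPM (302.3 to 314.3) and Ccl7 at 186.2 CPM (181.5 to 190.9). Ccl12 was at 76.0 CPM and Ccl8 at 5.91 CPM. A Ccl2 UMI was found in 61.3% of them and a Ccl7 UMI in 36.2%, at a median depth of 21359 UMIs, and after thinning in 25.7% and 14.5%. All 4 genes were lower than in the other macrophages of the same library, with log2 ratios of -2.12 (Ccl2), -2.28 (Ccl7), -4.50 (Ccl8) and -3.47 (Ccl12), where 11.2% of 10481 genes tested were called lower. Beside this difference, 7 of 12 dissociation genes and 4 of 12 NF-kappaB genes (Nfkbiz, Tnf, Il6 and Icam1) were lower in the infiltrating macrophage-like cells, and their part in it was not tested. Compared with Ly6C hi monocyte-like cells of the same library, infiltrating macrophage-like cells held more Ccl2 (1.03, 0.90 to 1.16), Ccl7 (4.05, 3.59 to 4.55) and Ccl12 (2.58, 2.15 to 3.05), where 13.5% of genes were called higher. Ccl7 (11.2 CPM) and Ccl12 (12.7 CPM) in those monocyte-like cells were at the level of free RNA, so that their ratios are set against background.

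These cells held the largest share of Ccl2 and Ccl7 in the injured brain. They were 32.7% of its cells and, being deeper than the others, held 45.6% of all its UMIs. They held 43.7% of the Ccl2 UMIs, 52.9% of the Ccl7 UMIs, 19.5% of the Ccl8 UMIs and 19.9% of the Ccl12 UMIs. Microglia-like cells, 14.1% of the cells, held 41.6% of the Ccl12 UMIs and 19.96% of the Ccl2 UMIs, but 5.55% of the Ccl7 UMIs. The Lyve1+ and Lyve1- macrophages, 8.16% of the cells, held 49.6% of the Ccl8 UMIs. At S3 the macrophages and the mixed macrophage cluster had been the main holders in the brain, with 37.5% and 27.6% of Ccl2, 39.6% and 45.5% of Ccl7, 79.7% and 17.0% of Ccl8, and 41.0% and 34.0% of Ccl12. In sums over a library fewer cells of a type and less RNA per cell cannot be told apart. Over all kept cells of the brain, where the median log2 ratio of all genes was -0.21, Ccl2 went from 188 to 322 CPM and Ccl7 from 100.1 to 161 CPM, while Ccl8 (16.0 and 13.8) and Ccl12 (156 and 174) differed by less than 1.5-fold. In the dura mater all 4 sums were higher at D3, by log2 ratios of 1.26 (Ccl2), 1.47 (Ccl7), 2.02 (Ccl8) and 0.78 (Ccl12), while macrophages went from 13.7% to 26.7% of the cells.

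**Figure D3:**
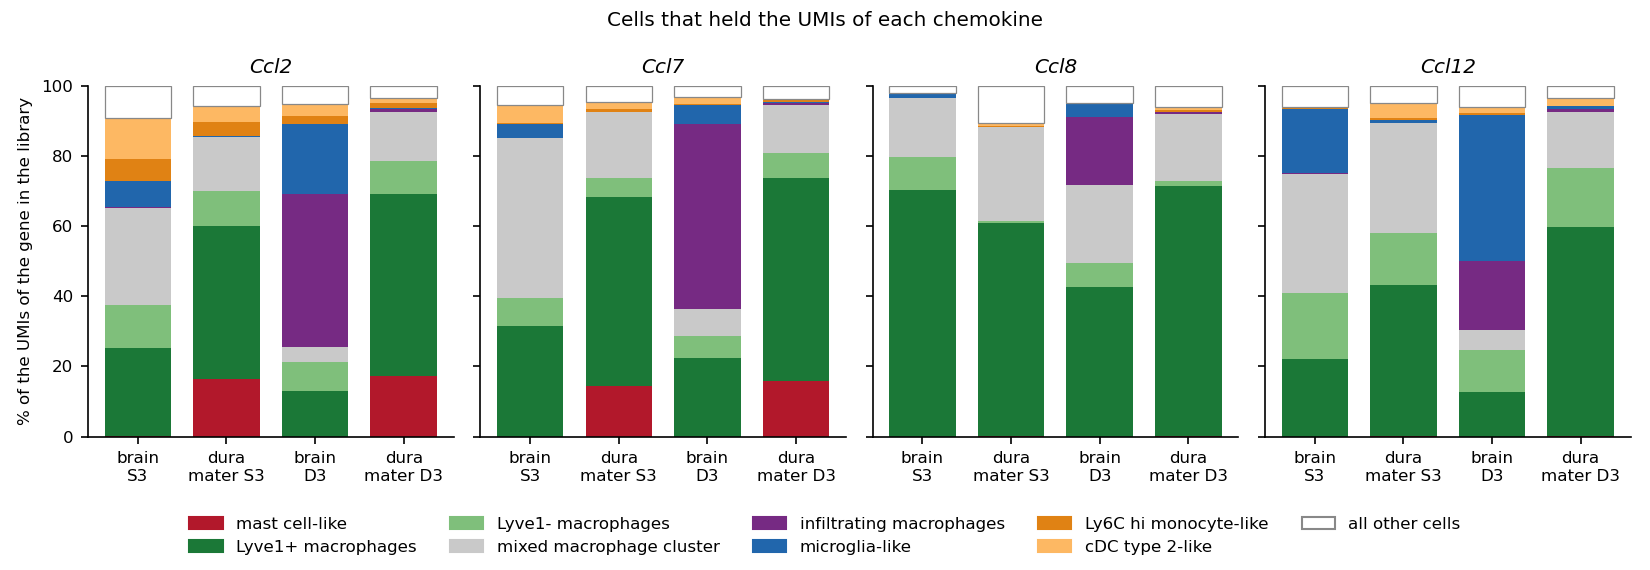
Share of the UMIs of each gene (%) held by each class of cells in the 4 libraries. Infiltrating macrophages hold 43.7% of Ccl2 and 52.9% of Ccl7 in the injured brain, and mast cell-like cells 16.4% and 17.4% of Ccl2 in the dura mater at S3 and D3.

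Among the macrophages of the brain, the Lyve1+ cells stood higher for all 4 genes. At S3 the 96 Lyve1+ macrophages held Ccl2 at 1966 CPM against 321 CPM in the 219 Lyve1- macrophages (log2 ratio 2.61, 2.50 to 2.73), and Ccl7 at 1315 against 111 CPM (3.56, 3.38 to 3.75). Ccl8 stood at 468 against 20.5 CPM (4.51, 4.11 to 4.94) and Ccl12 at 1436 against 406 CPM (1.82, 1.71 to 1.94). The call was passed by 14.8% of genes in this comparison. Ccl12 had the smallest gap between the 2 kinds of macrophage in each of the 4 libraries and Ccl8 the largest. At D3 the brain had the same order, from 3.69 for Ccl8 to 1.19 for Ccl12, where 13.1% of genes were called. In the dura mater the gap of Ccl8 was 5.90 at S3 and 4.67 at D3, where 10.1% and 8.53% of genes were called, and that of Ccl12 was 0.83 and 0.79, under 2-fold. The size of the Ccl8 gaps is uncertain. The Lyve1- level of the dura mater at S3, 27.3 CPM, was that of free RNA (26.7 CPM). In the brain, 5 Lyve1- cells held 92.9% of their 56 Ccl8 UMIs at S3 and 90% of 70 at D3. A single Lyve1+ cell of the brain held 192 of the 422 UMIs at S3.

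With injury, Lyve1- macrophages of the brain changed by more than Lyve1+ macrophages for Ccl2 and Ccl7. In the Lyve1- cells Ccl2 went from 321.3 to 770.1 CPM (log2 ratio 1.26, 1.15 to 1.38) and Ccl7 from 111.4 to 285.4 CPM (1.36, 1.16 to 1.56), where 0.889% of genes were called higher. Ccl7 in the Lyve1- cells rested on few of them, since 5 cells held 70.4% of its UMIs at S3 and 50.2% at D3. A Ccl7 UMI was found in 12.3% of the Lyve1- cells at S3 and in 22.8% at D3. In the Lyve1+ cells Ccl2 went from 1966 to 2548 CPM (0.37, 0.29 to 0.46) and Ccl7 from 1315 to 2210 CPM (0.75, 0.65 to 0.85), and neither passed 2-fold, where 1.36% of genes did. The difference between the 2 kinds of macrophage was not tested, and no other processing was tried for Lyve1- macrophages alone. Ccl12 was at 406 and 595 CPM in Lyve1- cells (0.55, 0.44 to 0.67) and at 1436 and 1361 CPM in Lyve1+ cells (-0.08, -0.18 to 0.03). Both kinds together gave log2 ratios of 0.88 for Ccl2, 1.14 for Ccl7, 0.02 for Ccl8 and 0.35 for Ccl12, and Ccl7 passed the call, against 0.732% of genes.

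These brain macrophage values depended on which cells were counted as macrophages. With 2500 cells drawn per library and clustered anew, the ratios of Ccl2 and Ccl7 were 0.12 and 0.23. With classes set cell by cell from the number of markers detected, they turned to -0.53 and -0.48, and that of Ccl12 to -1.40. In that grouping 719 of the 1400 brain macrophages at D3 were cells that clustered as infiltrating macrophage-like.

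**Figure D4:**
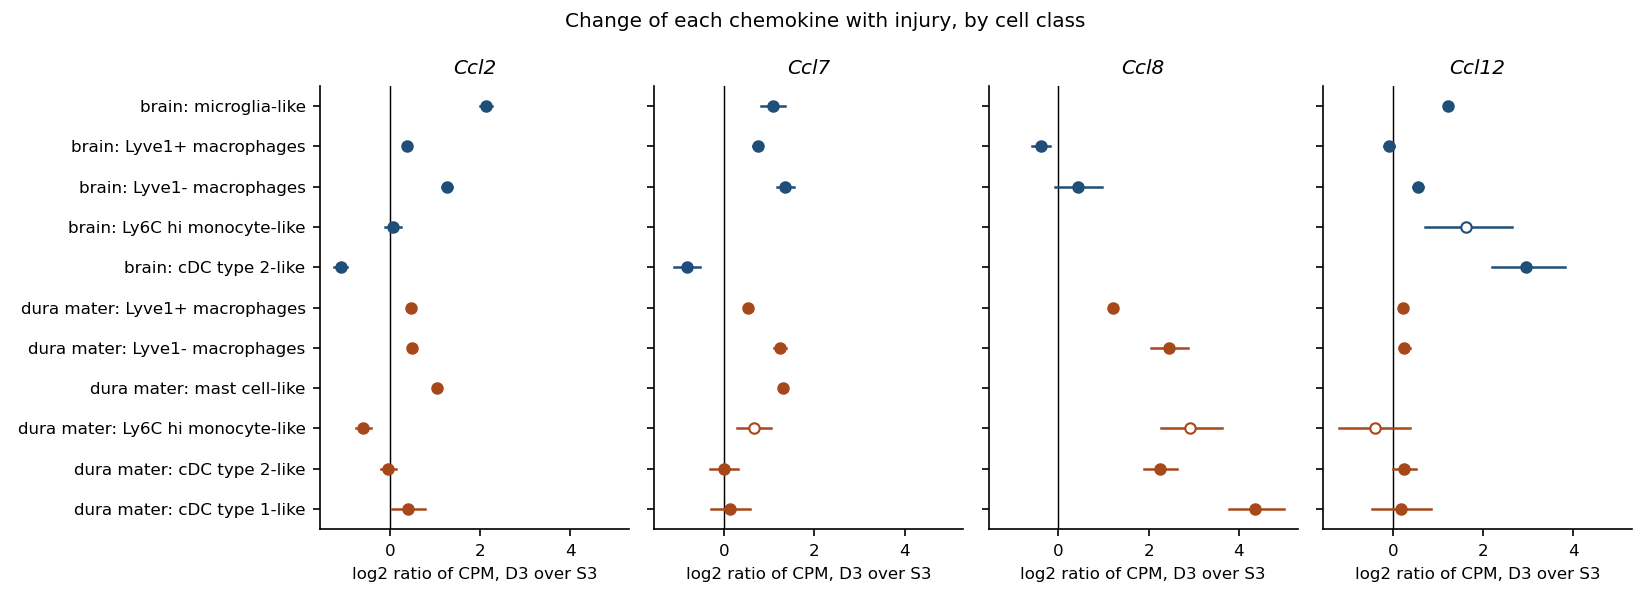
Log2 ratio of CPM, D3 over S3, with exact 95% intervals, by gene and class in brain (blue) and dura mater (brown), for classes holding 50 UMIs or more over S3 and D3. Open points mark classes at or below the upper limit of free RNA in both libraries. Microglia-like cells lie at 2.14 for Ccl2, and in Lyve1+ macrophages Ccl8 lies right of 0 in dura mater, left of 0 in brain.

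Ccl8 set the tissues apart. In Lyve1+ macrophages it was at 468 CPM (424 to 515) in the brain and at 1627 CPM (1585 to 1670) in the dura mater at S3, a log2 ratio of 1.80 (1.66 to 1.94). At D3 it was at 359 CPM (326 to 395) in the brain and at 3780 CPM (3735 to 3826) in the dura mater, a ratio of 3.40 (3.26 to 3.54). A Ccl8 UMI was found in 34.4% and 44.2% of the Lyve1+ macrophages of the brain, and in 67.0% and 85.4% of those of the dura mater, or 19.0%, 25.2%, 47.1% and 67.5% after thinning. The free RNA of the dura mater, at most 91.8 CPM, was far below these levels. Among genes, 5.78% at S3 and 5.17% at D3 were called higher in the dura mater. Ccl12 was on the other side, lower in the dura mater by 0.85 log2 units at S3 (799 against 1436 CPM) and by 0.55 at D3 (930 against 1361 CPM). Ccl2 and Ccl7 differed between tissues by 0.35 log2 units or less.

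The direction of Ccl8 with injury in the brain rested on few cells. D3 over S3, these cells had a log2 ratio of -0.38 (-0.58 to -0.18). A single S3 cell held 192 of the 422 UMIs, and 5 cells held 72.3% of them. Without the 1% of cells with the most UMIs in each group the ratio was 0.11, and with the mixed macrophage cluster added it was 0.87. In the dura mater the ratio was 1.22 (1.17 to 1.26), and Ccl8 was the only one of the 4 genes to pass 2-fold there, against 0.834% of genes. The share of Lyve1+ macrophages with all 4 genes, not thinned, went from 20.8% to 23.2% in the brain and from 27.8% to 47.3% in the dura mater. Their median depth went from 8866 to 7556.5 UMIs in the brain and from 11072.5 to 15042 in the dura mater. After thinning, the dura mater shares at S3 and D3 were 63.3% and 70.3% for Ccl2, 46.5% and 58.7% for Ccl7, and 40.9% and 40.1% for Ccl12. The part of depth in the shares with all 4 genes was not tested.

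In the Lyve1- macrophages of the dura mater Ccl7 went from 268 to 631 CPM (1.23, 1.10 to 1.37), above free RNA in both libraries, where 0.609% of genes were called higher. There, 5 cells held 55.9% of the Ccl7 UMIs at S3 and 31.3% at D3. Ccl8 went from 27.3 to 149 CPM, but the free RNA stood at 26.7 and 91.8 CPM, so the S3 level was that of background.

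Ly6C hi monocytes, the cells drawn by CCR2 ligands, carried Ccl2 above free RNA themselves, but little Ccl7, Ccl8 or Ccl12. Ccl2 was at 144 CPM in the brain at S3 and 151 at D3, and at 174 and 116 CPM in the dura mater, a log2 ratio of -0.59 (-0.75 to -0.42) there. In the dura mater Ccl7 (23.0 and 36.5 CPM), Ccl8 (5.57 and 41.8) and Ccl12 (7.84 and 5.95) were near or below free RNA in both libraries. The log2 ratio of 2.91 for Ccl8, in a comparison where 1.49% of genes were called higher, is therefore not read as a change in these cells. That background level of Ccl8 itself rested on few T cell-like and B cell-like cells. In the brain 0 Ccl8 UMIs were found in 228 and 240 cells, which allows a share of up to 1.32% of cells with a UMI at S3 (3 cells of the total).

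Conventional dendritic cells (cDC), which present antigen to T cells, carried Ccl2 at lower levels than macrophages. In cDC type 2-like cells of the brain Ccl2 went from 307 CPM (286 to 329) to 144 CPM (134 to 154), a log2 ratio of -1.09, but 5 of the 145 cells held 52.7% of the UMIs at S3, and 5 of the 330 cells 32.7% at D3. In the dura mater they stood at 234 and 229 CPM. High values of Ccl8 and Ccl12 in dendritic cells came from few cells. Of the 653 Ccl8 UMIs of the 43 cDC type 1-like cells of the dura mater at D3, 5 cells held 92.5%, and of the 244 Ccl12 UMIs of the 330 cDC type 2-like cells of the brain at D3, 5 cells held 88.1%. Granulocyte-like, NK/ILC1-like, gamma-delta T cell-like and ILC2-like cells of the dura mater held Ccl8 at 12.1 to 194 CPM, against 64.4 and 85.4 CPM in T cell-like cells, and in each of them 5 cells held 59.2% or more of its UMIs.

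Receptor RNA was highest in other cells than ligand RNA, but some classes carried both. In Ly6C hi monocyte-like cells, Ccr2 was at 866 CPM (834 to 899) at S3 and 1086 at D3 in the brain, and at 950 (919 to 980) and 1274 (1242 to 1307) in the dura mater, with a UMI in 98.3% to 99.6% of the cells. Lyve1- macrophages, with 524 to 758 CPM, and cDC type 2-like cells, with 513 to 675 CPM, followed. Lyve1- macrophages were also among the classes with much ligand RNA, with Ccl2 at 321 and 770 CPM in the brain at S3 and D3. In the dura mater they held it at 771 and 1080 CPM. In infiltrating macrophage-like cells of the brain it was at 166 CPM and in 54.8% of the cells. Mast cell-like cells, microglia-like cells and Lyve1+ macrophages had little Ccr2. It was at 3.53 and 6.81 CPM in mast cell-like cells, at 26.2 and 36.0 in microglia-like cells, and at 18.8 to 65.6 in Lyve1+ macrophages, against 1.33 to 6.51 in B cell-like cells.

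Ccr1, a receptor of CCL7, was highest in mature granulocyte-like cells, at 982 and 749 CPM in the brain at S3 and D3 and at 755 and 489 in the dura mater. In Ly6C hi monocyte-like cells it was higher at D3 than at S3, at 116 and 322 CPM in the brain and at 126 and 232 in the dura mater. Ccr8, the receptor of mouse CCL8, was found mainly in ILC2-like cells, at 82.1 CPM in the brain at S3 and at 37.5 and 51.7 CPM in the dura mater, with a UMI in 20.8% to 28.8% of them. In B cell-like cells its count was 0.

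**Figure D5:**
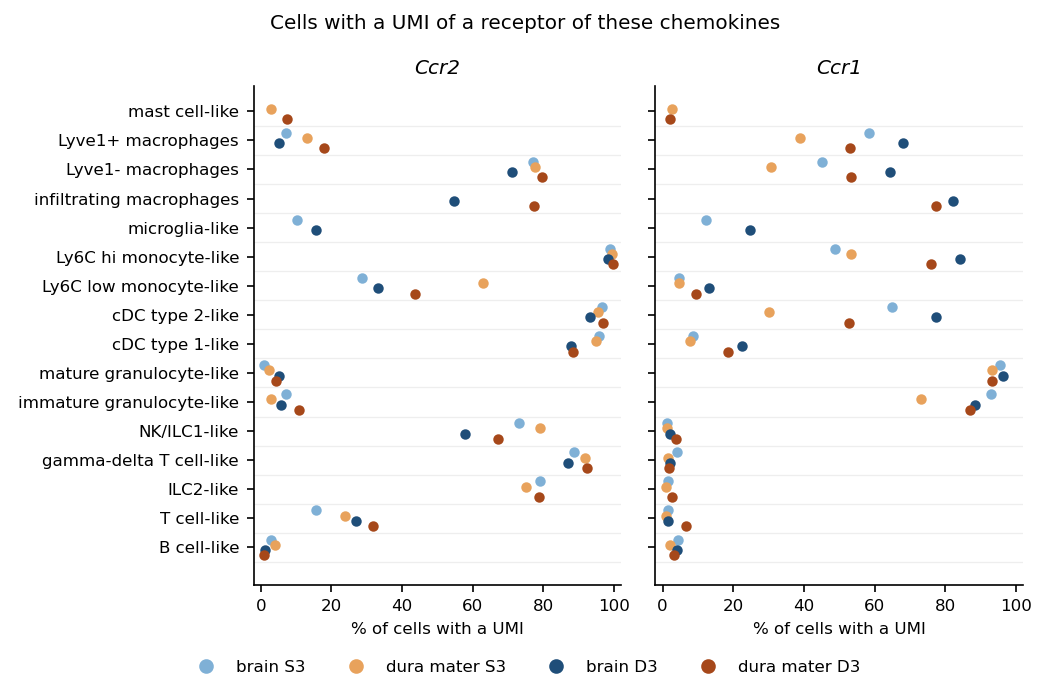
Share of cells with a UMI (%) of the receptors Ccr2 and Ccr1 in 16 classes of cells, coloured by library. Ccr2 is in at least 98.3% of Ly6C hi monocyte-like cells and in 2.78% and 7.45% of mast cell-like cells, and Ccr1 in at least 93.2% of mature granulocyte-like cells.

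Genes with the most similar pattern were sought among 12098 genes over 65 groups of class and library, which share libraries and are not independent. For Ccl2 these were Ccl7 (Pearson's r = 0.89), Clec10a (0.87), Snx24, Ctnnd1 and Sh3pxd2b. For Ccl7 they were Ccl2, Pmp22 (0.86), Kank2, C2 and Maoa. For Ccl8 they were Cd209g (0.89), Cbr2 (0.88), Cd209f, Pla2g2d and Folr2, of which Cbr2, Cd209f and Folr2 are on the marker list of Lyve1+ macrophages. Ccl12 had the highest values, with the complement genes C1qa (0.94), C1qc and C1qb (0.93), followed by Stab1 and Fcrls. Within the family, Ccl2 and Ccl8 were at 0.52, Ccl8 and Ccl12 at 0.60, Ccl7 and Ccl8 at 0.74, and Ccl12 at 0.75 with both Ccl2 and Ccl7.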

How the data were processed

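CD45+ cells of brain and dura mater were run on the 10x Chromium 3′ platform. The authors aligned reads to mm10 with Cell Ranger 3.1.0 and built matrices with Seurat 3.1.0. The deposited values are natural log values, ln(1 + UMIs per 10000 UMIs of the cell), from which whole UMIs were recovered within 1e-06 for 100% of values, although counts had been planned for. Cells outside 1000 to 6000 detected genes, or above 7% of UMIs from mitochondria, were dropped. Scrublet's own threshold marked under 0.2% of barcodes, so the highest scores were removed instead at 0.8% per 1000 barcodes (99 to 281 per library). The remaining cells, with 37590286 to 72390201 UMIs per library, were clustered with Seurat 5.3.0 in R 4.3.3 (2500 variable genes without chemokines and their receptors, 30 principal components, resolution 0.6) and named by 29 marker lists. Python 3.11.15 and scipy 1.17.1 gave Poisson and Clopper-Pearson intervals, which cover counting error only. The intervals of log2 ratios were also run on simulated Poisson counts. Those follow the model of the intervals and leave out the clustering of UMIs in few cells, so they cannot show how the intervals hold for these data. With 1 library per group, no test across samples was possible. The genes named are the 4 members in classes of at least 20 cells, the genes of 5 fixed lists (other CC chemokines, receptors, NF-kappaB, interferon, dissociation) and the 5 most similar genes of each member. Members and lists were chosen with earlier results of these data known. Gene positions are from GENCODE vM21. Other clusterings, marker gates, filters, thinning, subtraction of free RNA and leaving out the top cells were tried as alternatives. A receptor gene of the fixed list is not reported here.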

Additional observations from a re-analysis of the deposited data

Results flagged for a closer look

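The CPM of Ccl8 in Lyve1+ macrophages moved in opposite directions with injury in the 2 tissues, but the brain value rested on few cells. The log2 ratio of D3 over S3 was 1.22 in the dura mater and -0.38 in the brain, so that the dura mater stood 1.60 log2 units above the brain. The difference was not tested, because each tissue and condition had 1 library. The dura mater value stayed between 1.08 and 1.38 under 11 alternatives, while the brain value ran from -0.38 to 0.87 and kept its sign under 6 of 11. In the brain a single S3 cell held 192 of the 422 UMIs, and the share of cells with a Ccl8 UMI went up, from 34.4% to 44.2%. The level itself was higher in the dura mater at S3 and at D3, as given above.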

How the results depend on the processing

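Values are log2 ratios of D3 over S3 as reported above, and 94 of 162 alternative values lay within the interval of the reported value, 60 left it and 8 turned in direction. A turn was counted only where the interval of the reported value left out 0, so other changes of sign are among the 94 or the 60. No paired analysis was possible because each group has 1 library, and leaving out a replicate could not be done for the same reason. Counting the mixed macrophage cluster with the macrophages, and all alternatives for mast cell-like cells and for Lyve1+ macrophages alone, were chosen after seeing the data. The causes of the shifts were not tested except where given. With classes set by marker gates, Ccl2, Ccl7 and Ccl12 in microglia-like cells were 2.67, 1.87 and 1.45. In brain macrophages the gates gave -0.53, -0.48, -1.65 and -1.40 for Ccl2, Ccl7, Ccl8 and Ccl12, and 51.4% of the D3 cells in that class were infiltrating macrophage-like in the main grouping. In Ly6C hi monocyte-like cells of the dura mater the gates gave 1.42 for Ccl7 and 2.17 for Ccl8, in mast cell-like cells 1.13 for Ccl2 and 1.38 for Ccl7, and for Ccl8 in Lyve1+ macrophages 0.69 in the brain and 1.38 in the dura mater. With 2500 cells drawn per library, microglia-like cells gave 0.71 for Ccl7 and 1.12 for Ccl12, brain macrophages 0.12, 0.23, 0.40 and 0.11 for Ccl2, Ccl7, Ccl8 and Ccl12, Ly6C hi monocyte-like cells -0.92, 0.15 and 0.54 for Ccl2, Ccl7 and Ccl12, mast cell-like cells 1.17 and 1.19 for Ccl2 and Ccl7, and Ccl8 in Lyve1+ macrophages 0.67 in the brain and 1.11 in the dura mater. At resolution 0.3 brain macrophages gave 0.71, 0.79, 0.66 and 0.20, with Lyve1+ and Lyve1- cells in 1 class, so that Ccl8 in Lyve1+ macrophages was 0.66 too, and at resolution 1.2 Ly6C hi monocyte-like cells gave -0.38 for Ccl2 and 1.33 for Ccl7. With no filter on cells, Ccl2 in microglia-like cells was 1.86, brain macrophages gave 1.003 for Ccl7, 0.32 for Ccl8 and 0.26 for Ccl12, Ly6C hi monocyte-like cells -0.32 for Ccl2 and 1.35 for Ccl7, mast cell-like cells 1.40 for Ccl7, and Ccl8 in Lyve1+ macrophages -0.081 in the brain and 1.16 in the dura mater. Thinning each cell to 2000 UMIs gave 2.41 for Ccl2 and 1.08 for Ccl12 in microglia-like cells, 0.44 for Ccl12 in brain macrophages, 1.4996 for Ccl7 in mast cell-like cells, and -0.047 and 1.08 for Ccl8 in Lyve1+ macrophages of brain and dura mater. Without the 1% of cells with the most UMIs, microglia-like cells gave 2.38 for Ccl2 and 1.73 for Ccl7, brain macrophages 0.64 for Ccl8 and 0.42 for Ccl12, Ly6C hi monocyte-like cells 1.47 for Ccl7 and 2.26 for Ccl8, mast cell-like cells 1.12 for Ccl2 and 1.38 for Ccl7, and Ccl8 in Lyve1+ macrophages 0.11 in the brain and 1.34 in the dura mater. Centred on the median of all genes, Ccl2 and Ccl12 in microglia-like cells were 2.30 and 1.39 and Ccl8 in Lyve1+ macrophages of the dura mater 1.28. With the mixed macrophage cluster, brain macrophages gave 0.73, 0.75, 0.66 and 0.15, and Ccl8 in Lyve1+ macrophages 0.87 in the brain and 1.16 in the dura mater. Subtracting free RNA gave -1.06 for Ccl2 in Ly6C hi monocyte-like cells. Keeping doublets moved 0 of 16 values. Ccl7, Ccl8 and Ccl12 in Ly6C hi monocyte-like cells could not be computed after subtracting free RNA, nor Ccl8 in microglia-like cells without the top cells. Ccl2 and Ccl7 in mast cell-like cells kept their direction under 10 of 10 alternatives, as did Ccl2, Ccl7 and Ccl12 in microglia-like cells.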
